A study of Caenorhabditis elegans with 2 samples.

Results

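Candidate binding regions of eGFP-tagged ZTF-4 were examined over the 2 stretches of C. elegans chromosome IV that hold most annotated piRNA genes. A region was included if its summit lay at 4.5 to 7.0 Mb (left interval) or 13.5 to 17.2 Mb (right interval) of chromosome IV in the ce11 build. Of 30000 candidate regions in the list called on both replicates together, 1863 met this rule, 800 in the left and 1063 in the right interval. The remaining 3404 regions of chromosome IV served as the comparison.

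ChIP-seq was performed on whole L3 larvae of mixed sex in 2 biological replicates, which form 1 group. The strain, OP322, is unc-119(ed3) III and carries the integrated transgene wgIs322, from which eGFP-tagged ZTF-4 is expressed, and both replicates share this background. A control was used in peak calling, the strain of which is not stated in the labels. Because whole animals were used, a site bound in few cells and one bound weakly in many cannot be told apart. The replicate lists held 29249 regions (1522 in the intervals) for replicate 1 and 30000 (1898 in the intervals) for replicate 2.

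piRNAs are small RNAs bound by the Argonaute PRG-1 in the germline, where they recognise foreign and transposon transcripts and start their silencing. In C. elegans they begin with a 5' U, and most are transcribed singly from their own small promoters, which carry a conserved upstream motif with the core CTGTTTCA. These transcription units lie between and within protein-coding genes in large clusters on chromosome IV. ZTF-4 is a zinc finger protein, and the series addresses where it binds in the genome.

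The positional rule captured the clusters. Of 15363 annotated piRNA genes, all 21 bases long, 14204 (92.5%) lay in the 2 intervals, 510 elsewhere on chromosome IV and 649 on other chromosomes. Annotated piRNA genes numbered 1126 per Mb in the left and 3078 per Mb in the right interval, against 45.2 per Mb in the rest of the chromosome. The first base was T for 96.2% of the interval piRNA genes. CTGTTTCA, searched on the sense strand within 60 bp upstream, was found at 4944 of 14204 interval piRNA genes (34.8%, Wilson 95% interval 34 to 35.6%), with its start at a median of 46 bp upstream. The corresponding share was 31.6% in the rest of chromosome IV and 6.78% for piRNA genes on other chromosomes.

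The piRNA units that follow come from 12 named regions, the 6 with the highest signal in each interval among those with a summit within 100 bp of a piRNA 5' end. Of these 12 units 5 hold the core and 7 do not. Shown are the 4 with the highest region signal among the 5 and the 2 with the highest among the 7, so that units with the core are over-represented. The sequences are RefSeq ce11 (WBcel235), printed 5' to 3' on the piRNA strand, with 60 upstream bases and then the annotated piRNA gene. The piRNA gene and any CTGTTTCA core are in capitals. The first 4 units hold the core and the last 2 do not.
21ur-3089 (chrIV:5747179-5747259, minus strand): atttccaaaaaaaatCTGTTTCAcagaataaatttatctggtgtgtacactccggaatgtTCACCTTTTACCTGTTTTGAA
21ur-15608 (chrIV:5756692-5756772, minus strand): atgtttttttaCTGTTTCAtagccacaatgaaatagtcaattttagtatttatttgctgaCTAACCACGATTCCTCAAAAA
21ur-14927 (chrIV:14617296-14617376, plus strand): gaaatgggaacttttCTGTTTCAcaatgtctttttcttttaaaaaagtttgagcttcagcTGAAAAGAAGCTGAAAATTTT
21ur-7549 (chrIV:14680500-14680580, minus strand): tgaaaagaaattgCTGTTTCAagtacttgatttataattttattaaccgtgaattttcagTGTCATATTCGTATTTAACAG
21ur-2814 (chrIV:16167578-16167658, plus strand): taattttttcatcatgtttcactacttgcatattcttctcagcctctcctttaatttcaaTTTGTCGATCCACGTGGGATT
21ur-10560 (chrIV:13700860-13700940, minus strand): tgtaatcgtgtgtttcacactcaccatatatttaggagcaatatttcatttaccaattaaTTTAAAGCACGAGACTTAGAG

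For comparison, the 101-base windows centred on the summits of 4 of the strongest interval regions are given on the plus strand in lower case. They belong to the regions at rpl-20, sqd-1, W03F8.4 and ntl-11, and CTGTTTCA was found on neither strand in any of them.
rpl-20 and Y17G9B.5 (chrIV:4750015-4750115): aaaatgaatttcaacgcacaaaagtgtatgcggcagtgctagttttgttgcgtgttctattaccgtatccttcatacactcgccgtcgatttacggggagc
sqd-1 (chrIV:6323814-6323914): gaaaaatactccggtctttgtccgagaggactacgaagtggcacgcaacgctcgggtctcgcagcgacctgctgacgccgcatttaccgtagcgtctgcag
W03F8.4 (chrIV:5183847-5183947): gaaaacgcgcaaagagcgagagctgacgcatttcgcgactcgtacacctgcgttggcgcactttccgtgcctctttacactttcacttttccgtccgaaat
ntl-11 (chrIV:15471567-15471667): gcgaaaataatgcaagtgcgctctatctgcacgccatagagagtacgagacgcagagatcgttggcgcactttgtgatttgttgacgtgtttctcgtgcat

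Candidate regions were as dense in the piRNA intervals as in the rest of chromosome IV in the pooled list. The intervals held 300.5 regions per Mb (exact Poisson 95% interval 287 to 314) and the rest 301 (291 to 312), a ratio of 0.997 (0.942 to 1.05). Within the intervals the left had 320 per Mb and the right 287. The 2 replicates differed here. Replicate 2 gave 306 per Mb in both places, a ratio of 1.00 (0.946 to 1.06). Replicate 1 gave 245 per Mb in the intervals against 303 in the rest, a ratio of 0.811 (0.764 to 0.862), which fell to 0.744 (0.69 to 0.802) in the right interval. The lower density in replicate 1 was present in each of 5 classes of GC content of the 101 bp window around a base, with ratios from 0.752 to 0.867. In replicate 2 they ran from 0.79 to 0.98, all below 1 although its ratio over all classes was 1.00. In the pooled list they were 1.04 and 1 in the classes under 30% GC, then 0.824 (0.723 to 0.939), 0.866 and 0.949. Windows under 30% GC made up 43.6% of interval bases and 28.4% of the rest. The part of base composition in the equal pooled density was not tested. All these intervals, and those of shares below, cover counting error over regions only, neighbouring regions are not independent, and read depth is unknown.

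**Figure D1:**
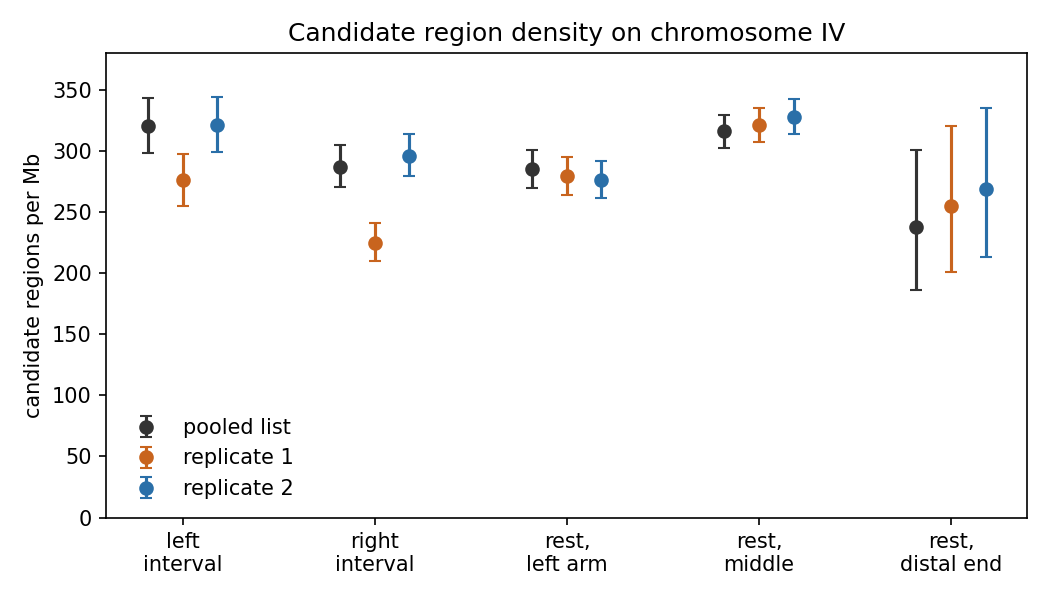
Candidate regions per Mb (y axis) in the 2 piRNA intervals and the 3 other stretches of chromosome IV (x axis), for the pooled list and each replicate's own list; bars are exact Poisson 95% intervals. Replicate 1 is lowest in the right interval, at 225 per Mb, where the pooled list has 287 and replicate 2 has 296.

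Counts varied along both intervals. In 100 kb windows the 62 interval windows held 7 to 68 pooled regions with a median of 29, and the 112 windows of the rest of the chromosome held 1 to 52 with a median of 30. The densest interval window, at 5.7 to 5.8 Mb, held 68 pooled regions, with 45 in replicate 1 and 66 in replicate 2. It contained 215 piRNA genes and 12 protein-coding genes and no region of the IDR list. Across the 25 windows of the left interval, the pooled count and the number of piRNA genes had a Spearman rho of 0.34, and across the 37 windows of the right interval 0.26. For the replicates' own lists these values were 0.18 and −0.14 for replicate 1, and 0.31 and 0.42 for replicate 2. Windows share chromosome position and base composition, so these values are descriptions.

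Interval regions were slightly weaker than those of the rest of the chromosome. The signal is the authors' enrichment value per region, and is compared within a list only. The pooled median was 8.75 in the intervals (quartiles 7.03 and 12.2) and 9.58 in the rest (7.26 and 13.9), a difference of −0.13 in log2 median. The difference had the same direction in both replicates' own lists, with medians of 3.39 against 3.55 in replicate 1 (log2 difference −0.07) and 7.23 against 7.78 in replicate 2 (−0.11). The right interval had the lower pooled median, 8.45, and the left 9.23. The stretch from the left chromosome end to 4.5 Mb, which has few piRNA genes, had a pooled median of 8.94, between the 2 intervals.

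Few interval regions belonged to the list that passed the authors' reproducibility (IDR) selection. Of all 30000 pooled candidates, 2.35% were in the IDR list. In the intervals 22 of 1863 were, 1.18% (0.781 to 1.78%), below that background, and in the rest of chromosome IV 64 of 3404 were, 1.88% (1.48 to 2.39%). The difference of −0.699 percentage points had a Newcombe 95% interval from −1.35 to 0.0252, which includes 0. It was −0.0767 when each interval was widened by 0.25 Mb on either side, and −0.417 when only the upper 50% of the IDR list by signal was counted. Among as many of the strongest regions of each replicate's own list as the IDR list holds, the difference was −0.792 points (−1.44 to −0.0291) in replicate 1 and −0.962 (−1.58 to −0.282) in replicate 2. Since the IDR list consists of the pooled regions with the highest signal (35.9 or more), its share restates the upper tail of the signal.

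Replicate partners, meaning reciprocally nearest summits within 100 bp, were found in both replicates for 288 of 1863 interval regions (15.5%) and 716 of 3404 in the rest (21%), against 20.4% of all pooled candidates. The difference was −5.58 points (−7.68 to −3.4). It came with replicate 1, in which 29.8% of interval regions and 37% of the rest had a partner (−7.17 points, −9.78 to −4.51). In replicate 2 the shares were 67.7% and 68.5% (−0.792 points, −3.44 to 1.83). Replicate 1 also had fewer regions in the intervals to pair with, and its part in the partner share was not tested. By interval, the difference for both partners was −8.15 points (−10.5 to −5.62) on the right and −2.16 (−5.08 to 0.996) on the left. Over the 288 interval regions with both partners, the replicate signals had a Spearman rho of 0.45, beside 0.42 over the 716 of the rest.

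Protein-coding 5' ends were less often near interval summits, mainly in the right interval. A summit lay within 500 bp of one for 298 interval regions (16%, 14.4 to 17.7%) and 802 in the rest (23.6%, 22.2 to 25%), against 21.7% of all pooled candidates, a difference of −7.56 points (−9.72 to −5.34). The intervals also have fewer protein-coding genes, 152 per Mb against 207, and 14.4% of their bases lie that close to a coding 5' end against 19.4% in the rest. The share of summits over the share of bases was therefore 1.11 in the intervals and 1.22 in the rest in the pooled list. For the replicates' own lists it was 1.25 and 1.22 in replicate 1, and 1.09 and 1.24 in replicate 2. By interval, left and right, it was 1.09 and 1.11 in the pooled list and 1.01 and 1.17 in replicate 2. In replicate 1 it was 1.24 and 1.2, both below the 1.25 of the 2 intervals together and on either side of the rest. The order of intervals and rest in replicate 1 therefore depended on taking the 2 intervals together.

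Summits fell mostly outside coding exons. In the intervals 888 (47.7%) were intergenic, 657 (35.3%) in introns of coding genes, 183 (9.82%) in coding exons, 85 (4.56%) in UTRs and 50 (2.68%) in non-coding genes other than piRNA genes. Coding exons make up 17% of interval bases, introns 29.3% and intergenic sequence 46%. Coding exons thus held a smaller share of summits than of bases, as in the rest of the chromosome (16.3% of summits, 25.7% of bases). In replicate 1 the coding exon share of interval summits was 15.6%, with an interval of 13.9 to 17.5% that includes the 17% of bases, and in replicate 2 it was 9.96% (8.69 to 11.4%).

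piRNA 5' ends lay near many interval summits and near many interval bases. A summit was within 100 bp of one for 682 of 1863 interval regions (36.6%, 34.4 to 38.8%) and for 1.18% of regions in the rest of chromosome IV, against 2.56% of all pooled candidates. Bases that close make up 29.8% of the intervals, so that the share of summits was 1.23 times the share of bases. The 2 replicates differed in this ratio: it was 0.999 in replicate 1, where 453 of 1522 summits (29.8%, 27.5 to 32.1%) were near a piRNA 5' end, and 1.26 in replicate 2, with 714 of 1898 (37.6%, 35.5 to 39.8%). Outside exons of coding genes the ratios were 1.19 in the pooled list, 1.01 in replicate 1 and 1.22 in replicate 2. By interval, left and right, the ratios over all bases were 1.39 and 1.21 in the pooled list and 1.31 and 1.27 in replicate 2. In replicate 1 they were 1.08 and 1.02, both above its value for the 2 intervals together. Bases near a piRNA 5' end make up 17% of the left and 38.5% of the right interval. A value over both therefore also reflects how regions divide between them. In the pooled list, interval regions overlapped 2004 of the 14204 piRNA genes (14.1%) and covered 10.7% of interval bases. The first share counts genes and the second bases, so they are unlike measures. At least 1 piRNA gene was held by 957 of the 1863 regions (51.4%). The share for windows of their width (median 370 bp) placed at random was not computed. Of interval bases, 61.9% lie within 500 bp of a piRNA 5' end, a longer reach than that of a region. That share is therefore no reference for the 51.4%.

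The profile around piRNA 5' ends was broad. In bins of 50 bp, counted per Mb of bases at that position, the pooled list had 400.0 summits per Mb (341 to 466) at 100 to 50 bp upstream, 380.4 (329 to 437) in the 50 bp upstream and 358 (308 to 414) in the 50 bp downstream. Replicate 2 reached 434 (379 to 495) in the 50 bp upstream. Replicate 1 was flat, with 246, 234 and 251 in the same 3 bins. Library fragments were selected at 150 to 350 bp, all longer than a piRNA gene with its upstream core, which limits how finely a summit can be placed.

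**Figure D2:**
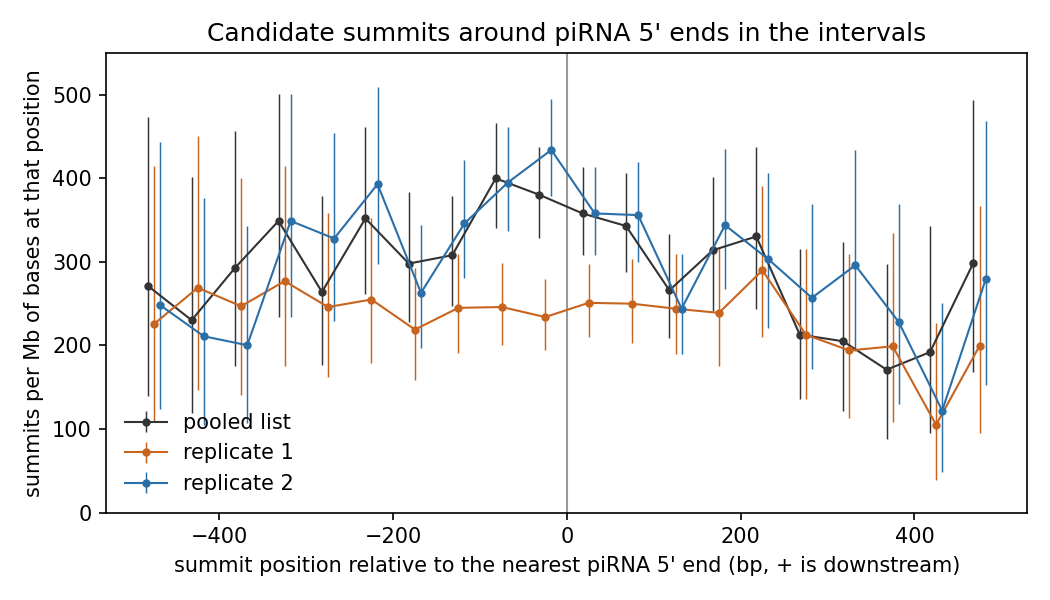
Summits per Mb of interval bases (y axis) by position relative to the nearest piRNA 5' end in bins of 50 bp (x axis, upstream negative), for the pooled list and each replicate's own list; bars are exact Poisson 95% intervals. The pooled list and replicate 2 are highest in the 100 bp upstream of the 5' end, at 380.4 to 434 per Mb, where replicate 1 stays at 234 to 246.

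The regions near piRNA 5' ends were the weaker ones. The 682 regions within 100 bp had a median pooled signal of 8.23 and a highest signal of 35.1, the 567 regions at 100 to 500 bp a median of 8.71, and the 614 regions farther away a median of 9.6. The IDR list held 0 of the 682, 3 of the 567 and 19 of the 614. Partners in both replicates were found for 10.4%, 15.7% and 20.8% of these 3 classes. A partner in replicate 1 was found for 23.3%, 30% and 36.8%, whereas for replicate 2 the shares were 67.6%, 67.4% and 68.1%.

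**Figure D3:**
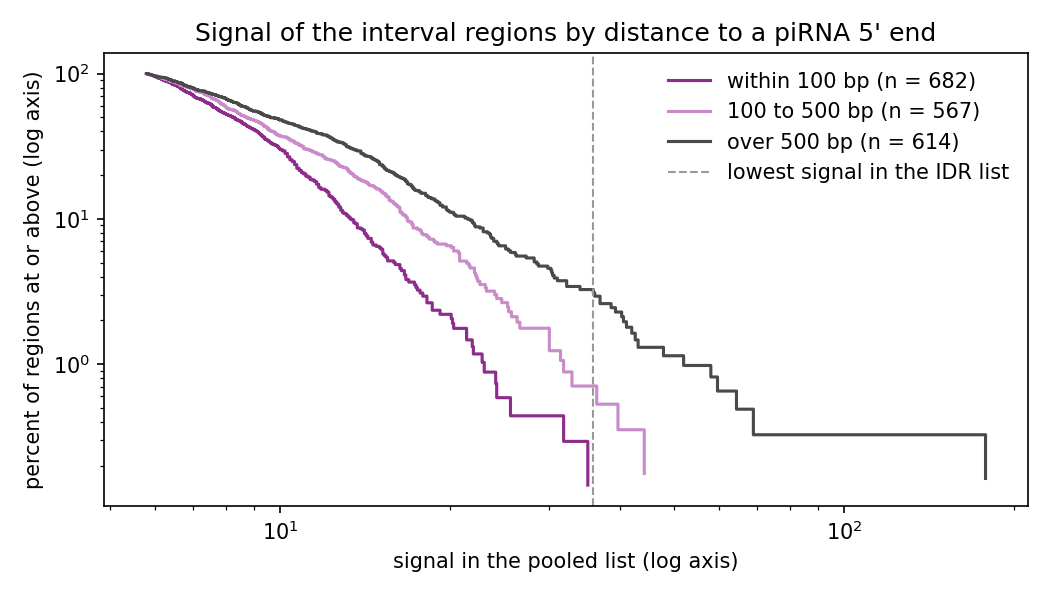
Percent of interval regions (y axis, log) at or above a given pooled signal (x axis, log), for 3 classes of distance to the nearest piRNA 5' end; the dashed line marks the lowest signal in the IDR list, 35.9. The curve of the 682 regions within 100 bp ends at 35.1, below the line, and that of the 614 regions over 500 bp away runs to 178.

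Split into quintiles by pooled signal, the share within 100 bp of a piRNA 5' end was 44%, 41.7%, 38.3% and 40.9% from the weakest to the next-to-strongest quintile, all above the 29.8% of bases. In the strongest quintile it was 68 of 373, 18.2% (14.6 to 22.5%), below the share of bases, a ratio of 0.612. Both replicates showed the low value at the top of their own lists. In replicate 1 the strongest quintile had 18.4% (14.5 to 23.2%) near a piRNA 5' end and the other quintiles 30.9 to 34.1%. In replicate 2 it had 25.1% (21 to 29.7%) and the others 37.6 to 43.7%. The strongest pooled quintile also had more summits within 500 bp of a coding 5' end, 26.5% (22.3 to 31.2%) against 12.1 to 15.5% in the others. Partners in both replicates were found for 45.3% of it, the highest share. The pooled list was called on the same 2 replicates, so a rise of partners with pooled signal is in part set by the ranking.

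**Figure D4:**
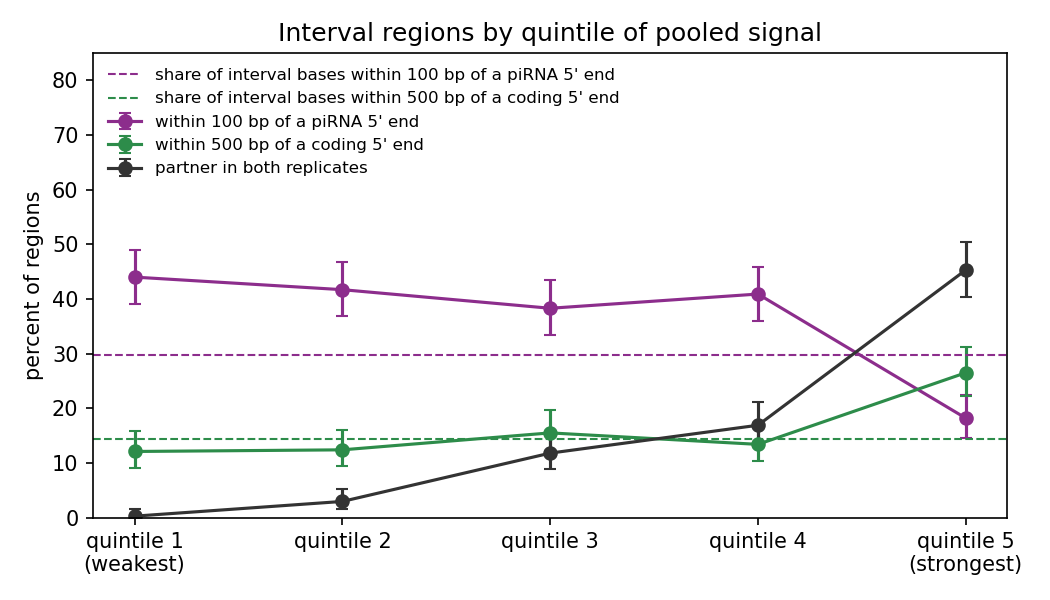
Percent of interval regions (y axis) near a piRNA 5' end, near a protein-coding 5' end or with a partner in both replicates, by quintile of pooled signal (x axis); bars are Wilson 95% intervals and dashed lines the shares of interval bases. From the weakest to the strongest quintile the piRNA share goes from 44% to 18.2%, the coding share from 12.1% to 26.5% and the share with both partners from 0.268% to 45.3%.

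Base composition moved with these classes. Median GC of the 101 bp summit window was 26.7% for regions near a piRNA 5' end, 32.7% for other interval regions outside the IDR list and 45% for the 22 IDR regions, beside 43.6% for the 64 IDR regions of the rest of chromosome IV. Windows under 30% GC made up 68.8% of bases near piRNA 5' ends and 33% of the other interval bases. Within the class under 25% GC, the pooled list had 433 summits per Mb (382 to 488) near piRNA 5' ends and 302 (259 to 350.1) farther away, and at 25 to 30% GC it had 427 (379 to 480.1) and 336 (299 to 378). Replicate 2 had 467 (415 to 525) and 317 (273 to 367) in the lowest class. Replicate 1 had 252 (213 to 295) and 200.1 (165 to 240.0) there, with overlapping intervals. In the pooled list the order was the opposite at 35 to 40% GC, with 143 (87.6 to 221) near and 221 (189.8 to 256) farther away on 20 summits near a piRNA 5' end, whereas replicate 1 had 258 and 219 there and replicate 2 had 237 and 194. At 40% GC and above the pooled order was also the opposite, with 159.9 (82.6 to 279) near and 267 (239 to 298) farther away, on 12 summits near a piRNA 5' end. Both replicates had that order there, with 133 (63.9 to 245) and 295 (266 to 328) in replicate 1. Replicate 2 had 119.9 (54.8 to 228) and 247 (219.7 to 276). At 30 to 35% GC the values near and farther away were 287 and 239 in the pooled list, 248 and 245 in replicate 1, and 304 and 284 in replicate 2.

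**Figure D5:**
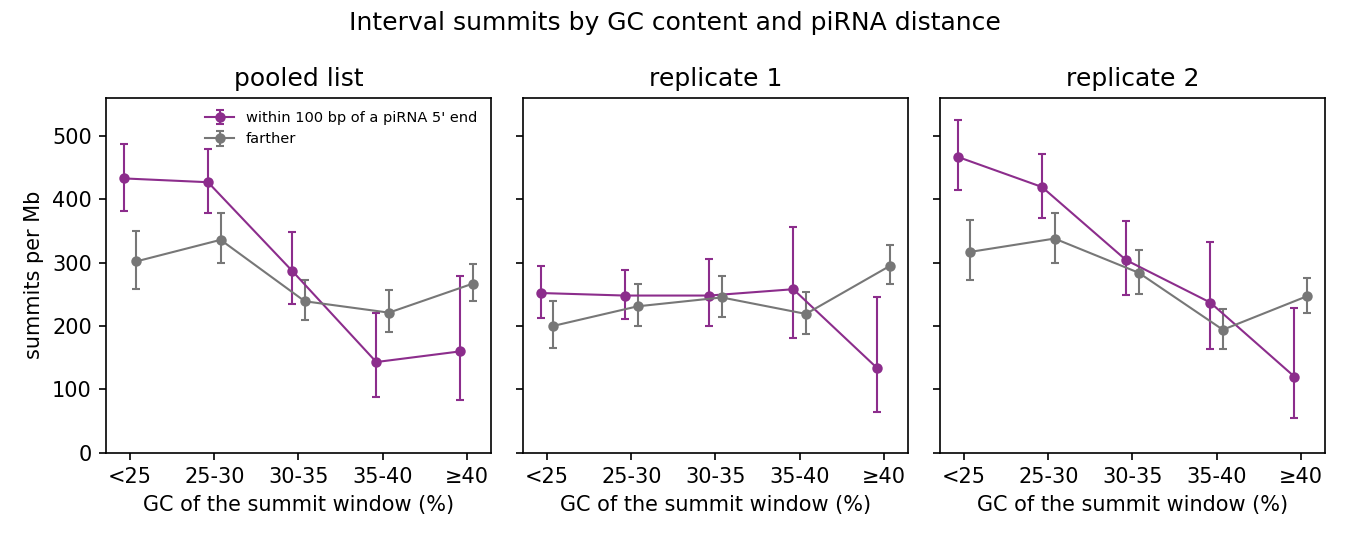
Interval summits per Mb (y axis) by GC content of the 101 bp window (x axis), within 100 bp of a piRNA 5' end and farther away, for the pooled list and each replicate's own list; bars are exact Poisson 95% intervals. In the lowest GC class the pooled list has 433 per Mb near and 302 farther, and replicate 1 has 252 and 200.1.

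Over both intervals together, the upstream core occurred at summits at close to its rate in the interval sequence. CTGTTTCA, on either strand, occurred within 50 bp of the summit in 162 of 1863 interval regions (8.7%, 7.5 to 10.1%), and 20 of 3404 in the rest (0.588%), against 1.13% of all pooled candidates. Of all windows of that length, 7.36% in the intervals and 0.76% in the rest held it, so the pooled interval share lay slightly above that of all windows. For replicate 1 the interval share was 7.1% (5.91 to 8.5%), slightly below the 7.36% of windows, which its Wilson interval includes. For replicate 2 it was 9.06% (7.85 to 10.4%), above the share of windows. In the left interval the pooled share was 6.88% (5.32 to 8.84%), above the 4.98% of left windows. Replicate 1 had 5.37% (3.92 to 7.31%) there and replicate 2 had 6.73% (5.2 to 8.68%). In the right interval, where 8.97% of windows held the core, the pooled share was 10.1% (8.4 to 12%). Replicate 1 had 8.52% (6.81 to 10.6%) there and replicate 2 had 10.8% (9.07 to 12.7%). Among the 682 regions near a piRNA 5' end 137 held the core, 20.1%, the same as the 20.1% of all such windows. None of the 22 IDR regions held it, which allows a share of up to 13.6% by a limit of 3 counts and 14.9% by the Wilson interval.

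The 6 regions with a printed piRNA unit were in the strongest quintile of interval regions and below the lowest IDR signal of 35.9. The strongest, at 21ur-2814 (summit 16167565), had a pooled signal of 35.1, with 19.5 in replicate 1 and 19.8 in replicate 2. At 21ur-10560 (summit 13700853) the values were 31.8, 7.41 and 25.6. At 21ur-7549 (summit 14680594) they were 22.8, 2.62 and 20.3. The region at 21ur-14927, 24.1 in the pooled list, had a partner in replicate 2 only, at 22.3. In the left interval the region at 21ur-3089 had 24.2, with 10 in replicate 1 and 14.4 in replicate 2, and the region at 21ur-15608 had 23, 10.3 and 16.5. Replicate partners were present in both lists for 5 of the 6. The other 6 of the 12 named regions near a piRNA 5' end, chosen by rank within each interval and not over both, had pooled signals of 18.6 to 22 for the 4 on the left, and 25.6 and 21.9 for those on the right.

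The 22 IDR regions lay at other features. None had a summit within 100 bp of a piRNA 5' end, with the nearest at 135 bp and a median of 3284 bp, and 1 held a piRNA gene. In 8 of 22 (36.4%, 19.7 to 57%) the summit was within 500 bp of a coding 5' end, upstream of it in 7, a share close to the 25 of 64 (39.1%, 28.1 to 51.3%) in the rest of the chromosome. Protein-coding genes with an IDR summit that close numbered 10 of 941 in the intervals (1.06%) and 32 of 2340 in the rest (1.37%), against 1.72% of all protein-coding genes. All 11 IDR regions of the left interval had partners in both replicates. In the right interval 5 of 11 did, and the other 6 had a partner in replicate 2 only.

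The region with the highest signal lay in the left interval, between the diverging 5' ends of rpl-20, which encodes a large ribosomal subunit protein, and Y17G9B.5. Its summit at 4750065 had a pooled signal of 178, rank 17 of the pooled list, with 42.9 in replicate 1 and 134 in replicate 2, ranks 21 and 20. It was among the leading regions of all 3 lists. The next in the left interval was 735 bp upstream of ipla-6, a phospholipase gene, with 69 in the pooled list, 21.7 in replicate 1 and 52.8 in replicate 2. The region 310 bp upstream of sqd-1, which encodes an RNA-binding protein of the hnRNP kind, had 59.6, 17.3 and 43.7. The values at W03F8.4 were 58, 16 and 40.4. The region upstream of sar-1, the small GTPase of COPII vesicles, had 51.9, 25.3 and 25.9.

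The other 6 IDR regions of the left interval had lower signals. A summit in an intron of lag-1, the DNA-binding effector of Notch signalling, had a pooled signal of 47.8, with 18 in replicate 1 and 34.2 in replicate 2. A summit in an intron of skn-1, the Nrf-type regulator of stress responses, had 42, 7.23 and 36.1. One in a UTR of fkh-7, a forkhead gene, had 39.7, 23.4 and 21.4. The region 1115 bp upstream of bec-1, the beclin gene of autophagy, had 40.3, 10.9 and 29.6. The summit at 5967224 lay in a tRNA gene, WBGene00022903, with 36.4, 11.4 and 24.1, and was the IDR summit closest to a piRNA 5' end. The last, at 4725648 and 786 bp from the 5' end of K08F11.1, had 35.9, 7.79 and 25.6.

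In the right interval the strongest region was 122 bp upstream of ntl-11, which encodes a CCR4-NOT complex subunit, with 64.4 in the pooled list, 29.6 in replicate 1 and 34.1 in replicate 2. It was the only right region with a pooled signal above 50 and also the strongest right region of replicate 1. Both dmd-6 regions are 6489 bp apart at this DM-domain gene. The one 2372 bp upstream had 44.2, with a partner in replicate 2 only at 36.1, and the one in an intron had 43.1, with 18.8 in replicate 1 and 21.9 in replicate 2.

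The region 60 bp upstream of hrpu-1, a homologue of the nuclear RNA-binding protein hnRNP U, had 42.6 and a partner in replicate 2 only, at 33.8. A pair of regions 477 bp apart, at 14033320 and 14033797, had 39.3 and 41.1. The first had 39.1 in replicate 2 and no partner in replicate 1, and the second had 16 in replicate 1 and 24.4 in replicate 2. This pair lay beside the microRNA gene cel-mir-52, the 1 of 19 interval miRNA genes with an IDR summit within 500 bp.

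A group of 3 IDR regions spanned gdi-1, the Rab GDP dissociation inhibitor gene, melo-1 and coq-3, which encodes a methyltransferase of ubiquinone synthesis. Their pooled signals were 36.9 in a coding exon of melo-1, 40.6 in an intron of coq-3 and 36.9 in a coding exon of coq-3. The first had partners in both replicates (7.63 and 23.5) and the other 2 in replicate 2 only (37.7 and 34). The region between mrps-7, a mitochondrial ribosomal protein gene, and Y57G11C.3 had 36.1, 10.4 and 24.7. The region at 16389187, near the tRNA gene WBGene00014560, had 38.6 with a partner in replicate 2 only, at 29.4.

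The positional edges cut through stretches with ordinary candidates. At 4.5 Mb the nearest summit outside had a pooled signal of 7.69 and the nearest inside 5.94, and at 7.0 Mb the inside value was 6.41 and the outside value 20.5. At 13.5 Mb the outside value was 9.16 and the inside value 17.3, and at 17.2 Mb the inside value was 6.51 and the outside value 6.07. None of these 8 regions was in the IDR list. The nearest piRNA 5' end was 59036 and 65210 bp away at the 4.5 Mb edge, and 102 bp and 5 bp away at the 17.2 Mb edge, so annotated piRNA genes continue past the last limit.

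Genes of the piRNA pathway itself, most of them on other chromosomes, were examined as a list. Of 34 matched genes for piRNA transcription, processing and silencing, 11 had a candidate no more than 500 bp from the 5' end (32.4%, 19.1 to 49.2%), close to the 28.6% of all protein-coding genes. An IDR summit was present at 1 of 34 (2.94%, 0.521 to 14.9%), near the 1.72% of all protein-coding genes. This was simr-1, a gene required for small RNA amplification downstream of piRNAs, with a pooled signal of 45.8, 14.2 in replicate 1 and 31.5 in replicate 2. The next by signal was snpc-4, which encodes the small nuclear RNA-activating complex subunit that occupies the piRNA clusters, with 33.5, and 3.53 and 31.3 in the replicates. The others named by rank were tofu-1 (29.9), tofu-5 (23.3), ego-1 (19.4), henn-1 (17.6) and tofu-7 (13.4). Of these, tofu-1 (26.9) and tofu-7 (14.3) had a partner in replicate 2 only, and ego-1 (20.7) in replicate 1 only. In replicates 1 and 2, tofu-5 had 4.3 and 18.9, and henn-1 had 5.29 and 7.73. The genes prg-1 and prde-1 had no candidate summit there.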

How the data were processed

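The deposited lists are in narrowPeak layout. The authors called candidate regions on each replicate and on both replicates together against a control, per the file headers and inventory text, and made the IDR list from these. For the aligner, peak caller, IDR threshold and scaling, nothing is given in the sources used here. Each deposited signal value is the authors' enrichment measure, used to rank and describe within a list. The deposited −log10 q-values had a ceiling of 3.15 in the pooled list and were not used for ranking. The candidate lists hold weak regions, and 2 of them end at 30000.

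Summits were taken from the deposited offsets and given 1-based in ce11. Gene models were Ensembl release 115 of the same assembly and sequences RefSeq. Median width was 370 bp. Shares have Wilson, differences Newcombe and densities exact Poisson 95% intervals. With 1 group of 2 replicates, no hypothesis test was made, and density, signal, annotation, distance, motif and GC class measures were recomputed in each replicate's own list. Gene group counts, signal by piRNA distance class, covered piRNA genes and median GC by class were taken from the pooled and IDR lists only. Functions were tested on simulated data. Python 3.11.15 was used with scipy 1.17.1, pandas 2.3.3, numpy 2.4.6 and, for plots, matplotlib 3.10.9.

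The members, lists and measures were chosen with earlier results of these data known. Named were the 10 strongest regions per interval, up to 6 per interval within 100 bp of a piRNA 5' end, the regions at the edges, and pathway genes with an IDR summit and up to 6 further ones by signal. The last IDR region of each interval was added after its values were seen. Of the pathway list, prg-2 and tofu-3 had no match. Alternatives were each replicate's list, ce10 lists, moved edges, other comparison regions, the stronger 15000 regions, and other distances and windows. The ratio of summit share to base share, GC classes and quintiles were chosen after seeing the data. Alignments and the control were not analysed here.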

Additional observations from a re-analysis of the deposited data

How the results depend on the processing

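Of 77 alternatives, 53 left a result inside the error interval of its main value. A further 22 moved it outside that interval without passing no difference, and 2 moved it past no difference. No difference is a ratio of 1 or a difference of 0, and passing it was counted only where the main interval excluded it. The density ratio, whose main interval includes 1, was 1.02 with edges moved inward and 1.04 against chromosomes I, II, III and V. The log2 signal difference had no such interval, and its standard deviation over the replicates, 0.026, was used instead. Leaving out 1 replicate gave density ratios of 0.811 to 1 (main 0.997) and log2 signal differences of −0.11 to −0.07 (−0.13). Differences near piRNA 5' ends were 28.8 to 36.6 points (35.4) and motif differences 6.48 to 8.48 points (8.11). Ratios of summit to base share were 0.999 to 1.26 (1.23). The intervals were chosen for their piRNA genes, so piRNA and motif differences are largely set by the sequence. Of bases, 29.8% in the intervals and 0.801% in the rest lie within 100 bp of a piRNA 5' end. Of all 101 bp windows, 7.36% and 0.76% hold the core. The 2 alternatives past no difference were both of the summit to base ratio. Without replicate 2 this ratio was 0.999 (0.924 to 1.08), an interval that includes 1, so it showed no clear excess. By interval it was 1.08 on the left and 1.02 on the right, so its passing 1 depended on taking the 2 intervals together. The Wilson intervals of both shares, 15.6 to 21.3% and 36 to 42.6%, include the shares of bases, 17% and 38.5%. In the strongest quintile it was 0.612 (0.492 to 0.754), and in the other quintiles 1.38. In the stronger 15000 regions the density ratio was 0.831, the log2 signal difference −0.08, the piRNA difference 28.9 and the summit to base ratio 1.01. Edges moved outward gave a log2 signal difference of −0.10, a coding 5' end difference of −4.91 and a piRNA difference of 31.1, and edges moved inward a piRNA difference of 38.3. The coding difference was −4.68 at 250 bp, −11.7 at 1000 bp and −9.97 with the 5' ends of all transcripts. The piRNA difference was 20.3 at 50 bp and 63.7 at 500 bp, where the summit to base ratio was 1.08. The motif difference was 3.84 in a 25 bp window and 16.5 with up to 1 mismatch. The cause of these shifts was not tested beyond the changed distance or window. The IDR difference stayed below 0 in each of its 10 alternatives, from −1.26 to −0.0767. No paired analysis was possible because the series has 1 group. Depth is unknown, so how many weak regions each list could hold cannot be given.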

Other observations

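Genes for other small RNAs lie in the same intervals. Within 500 bp of the 5' end, a candidate summit was found at 31 of 41 tRNA genes in the intervals (75.6%, Wilson 95% interval 60.7 to 86.2%), 26 of 32 of them in the right interval, and at 18 of 30 tRNA genes in the rest of chromosome IV (60%, 42.3 to 75.4%). For miRNA genes the counts were 8 of 19 in the intervals and 8 of 31 in the rest, and for snoRNA genes 9 of 18 and 23 of 41. Over all protein-coding genes the share was 26.9% in the intervals and 30.6% in the rest, and over piRNA genes 30.9% and 23.5%. The IDR list reached 2 of the 41 interval tRNA genes, WBGene00022903 and WBGene00014560, and 0 of 18 snoRNA genes, whereas 5 of 41 snoRNA genes in the rest had an IDR summit. Among protein-coding genes, 1.06% in the intervals and 1.37% in the rest had an IDR summit that close. For tRNA, miRNA and snoRNA genes the Wilson intervals of the 2 places overlap, and the differences were not tested.

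Of the 5 cytosolic ribosomal protein genes in the intervals, 4 had a candidate that close and 1, rpl-20, an IDR summit, beside 26.9% and 1.06% of all interval protein-coding genes. All 12 in the rest of chromosome IV had a candidate and 3 an IDR summit. None was found at the 9 major sperm protein genes of the intervals, all in the left one, or at the 9 in the rest of the chromosome. The Wilson upper limit of 0 of 9 is 29.9%, which includes the share over all interval protein-coding genes.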
